A study of Mus musculus with 2 samples.

Results

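The transcripts described here encode the folding, quality control and secretion machinery of the endoplasmic reticulum (ER) together with the heat-shock chaperones of the cytosol and mitochondria. The set was chosen by gene symbol and holds 40 of the 31053 features listed for each library: 30 ER members, 8 cytosolic heat-shock members and 2 mitochondrial chaperonins. All 40 symbols were found in both libraries. Droplet-based single-cell RNA sequencing had been done on innate lymphoid cells (ILC) sorted from the lamina propria of the small intestine in mice of strain C57BL/6. The sort took live CD45+ Lin- CD3- TCRβ- cells carrying CD90.2 and CD127. One pool of 4 wild-type mice gave the WT library and a pool of 4 Zfp36-/- mice gave the library called Zfp36_KO here. The labels name no treatment, age or sex, and do not say how the Zfp36 allele was made. Zfp36 encodes tristetraprolin, an RNA-binding protein that promotes the decay of messenger RNAs with AU-rich elements.

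Proteins that enter the secretory pathway pass through the translocon into the ER, where the chaperone BiP and its cochaperones, the lectin chaperones and the protein disulfide isomerases fold them. Misfolded chains are returned to the cytosol for degradation, and a load of unfolded protein is sensed by the unfolded protein response, whose transcription factors XBP1, ATF6 and ATF4 raise the genes of this machinery. Plasma cells, which secrete antibody and depend on XBP1, are the textbook example of a cell with an enlarged ER. The cytosolic heat-shock genes answer to a separate factor, HSF1, and respond to heat and proteotoxic stress.

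The ER stress response element is the promoter motif bound by ATF6 and XBP1 together with NF-Y, and the heat-shock element is the motif bound by HSF1. RefSeq promoters (GRCm38.p6, 250 bases before to 50 after a start site) were given for 31 of the 40 members, and both strands were searched. The ER stress response element, spelled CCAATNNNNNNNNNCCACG with N for any base, was present in 9 of the 24 ER members that have a promoter entry (37.5%), against 37 of 27025 genes in all (0.137%) and 39 of 32851 promoters (0.119%). Its 9 holders were Hspa5, Hsp90b1, Dnajc3, Creld2, Calr, Canx, Pdia6, Syvn1 and Derl3. The members were chosen as genes of the ER machinery, which these factors raise. Their share is therefore not independent of that choice. The heat-shock element was searched as GAA, TTC and GAA in that order with any 2 bases between neighbours. It was present in 1 of the 5 cytosolic members with a promoter entry, Hsph1, where it lay after the start site. Both mitochondrial chaperonins, Hspe1 and Hspd1, held it, against 0.662% of all genes. Hspa8, Hsp90aa1 and Hsp90ab1 had no entry and were not searched. The shorter unfolded protein response element TGACGTGG had no match in these windows of the 24 ER members and a match in 0.714% of all genes. A match is a run of letters and not a measured binding site. Only exact matches of the fixed bases in these windows were counted. Variant spellings were not searched, so a promoter without a match can still hold the element. The stretches below are shown because they carry the motif in the ER chaperones and in Derl3, the member with the widest difference between classes, and in the promoter that Hspd1 shares with Hspe1. Each is written 5′ to 3′ on the strand of its gene, with the fixed bases of the motif in capitals (CGTGG and ATTGG where the motif lies on the opposite strand). Start sites here are those of RefSeq. The gene coordinates given further below are from GENCODE, where Hspa5 begins upstream of its stretch.
Hspa5, chr2:34772015-34772053, plus strand: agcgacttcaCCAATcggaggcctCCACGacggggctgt
Calr, chr8:84847065-84847103, minus strand: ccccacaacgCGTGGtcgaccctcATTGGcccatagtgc
Pdia6, chr12:17266481-17266519, plus strand: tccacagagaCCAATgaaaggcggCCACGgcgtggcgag
Derl3, chr10:75893232-75893270, plus strand: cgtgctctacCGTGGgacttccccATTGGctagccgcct
Creld2, chr15:88819510-88819548, plus strand: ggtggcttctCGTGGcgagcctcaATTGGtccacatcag
Hsp90b1 held the motif at 2 places, 212 and 107 bases before its start site, in opposite orientations, and both lie in this stretch on the minus strand.
Hsp90b1, chr10:86705523-86705666, minus strand: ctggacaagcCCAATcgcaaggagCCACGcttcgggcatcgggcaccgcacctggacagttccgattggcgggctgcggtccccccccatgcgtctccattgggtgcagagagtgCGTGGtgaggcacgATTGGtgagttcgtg
Hspd1, chr1:55088049-55088086, minus strand: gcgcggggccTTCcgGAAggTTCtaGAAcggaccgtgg
In the last stretch the capitals mark the repeated TTC and GAA units of 2 overlapping heat-shock elements. Hspd1 and Hspe1 lie head to head on chromosome 1, so this is the same site for both genes.

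The WT library held 3593 cell barcodes and 24721524 unique molecular identifiers (UMIs, each a counted transcript molecule), and the Zfp36_KO library held 3522 barcodes and 27733804 UMIs. After filters 3360 and 3334 cells were kept, with medians of 5292.5 and 5336.5 UMIs. Cells were placed in classes by the UMIs of marker genes: plasma cells (114 in WT, 156 in Zfp36_KO), myeloid cells (50 and 237), ILC2 (488 and 835), ILC3 (763 and 934) and ILC1 with natural killer cells (ILC1/NK, 130 and 124). Plasma and myeloid cells were thus present in a sort for ILC, and a T-cell gate took 856 WT and 14 Zfp36_KO cells in spite of the CD3- gate. T and B cells were not compared between libraries. A further 24.7% and 23.2% of cells passed several gates and 3.48% and 7.65% passed none, and they belong to no class. Doublet calling marked 37 WT and 5 Zfp36_KO barcodes; the second is 0.150% and the caller can be taken not to have worked there. The libraries shared 2 barcode sequences. A Y-linked UMI was seen in 4 WT and 534 Zfp36_KO cells (16.0%), so the libraries differ in their share of cells from male mice, and sex and genotype cannot be told apart over all cells.

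The classes carried their defining transcripts. Igha, the constant region of IgA, was at 158304 and 162201 CPM (the UMIs of a gene for every 1000000 UMIs of the class) in plasma cells of WT and Zfp36_KO and at 393 and 315 CPM in ILC. Il22 was at 1491 and 3383 CPM in ILC3, Il13 at 113 and 108 CPM in ILC2, and Ifng at 335 and 454 CPM in ILC1/NK. Zfp36 was lower in the Zfp36_KO library in all 5 classes but was still counted: 154 against 73.9 CPM in plasma cells, 1103 against 654 in myeloid cells, 741 against 307 in ILC2, 1146 against 296 in ILC3 and 648 against 300 in ILC1/NK. Tags at the 3′ end can come from outside a deleted part, so these levels do not check the deletion itself.

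Each genotype is 1 library, so no comparison below has a replicate and none is tested. Ratios are given as log2 with the exact 95% Clopper-Pearson interval of the split of UMIs, which holds only the error of counting; how mice of a pool differed is not in it. A difference is called when at least 50 UMIs were counted over both sides, the interval leaves out 0, and the size is 2-fold between classes or 1.5-fold between libraries. The share of all genes called by the same rule is given with the counts.

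Plasma cells carried more ER transcripts and fewer cytosolic heat-shock transcripts per UMI than myeloid cells, ILC2, ILC3 and ILC1/NK. Summed over the 30 ER members, plasma cells held 9466 CPM in WT and 13271 CPM in Zfp36_KO, against 4240 and 5178 CPM in all ILC and 6125 and 7316 CPM in myeloid cells. The log2 ratio of plasma cells to ILC was 1.16 in WT (1.14 to 1.18) and 1.36 in Zfp36_KO (1.34 to 1.37). The 8 cytosolic members summed to 1676 and 1119 CPM in plasma cells, against 5363 and 5638 CPM in ILC and 6031 and 4466 CPM in myeloid cells, which is a log2 ratio to ILC of -1.68 (-1.71 to -1.64) in WT and -2.33 (-2.37 to -2.29) in Zfp36_KO. Immunoglobulin transcripts made up 70.6% and 66.7% of plasma cell UMIs, and a CPM over all UMIs is lower for every other gene by that share. The median gene was accordingly at a log2 ratio of -2.11 in WT and -1.95 in Zfp36_KO. With immunoglobulin, ribosomal protein and mitochondrial genes left out of the totals, every plasma to ILC log2 ratio moved up by 1.74 in WT and 1.58 in Zfp36_KO: the ER sum stood at 2.89 and 2.94, and the cytosolic sum at 0.06 in WT, where the direction turned, and at -0.76 in Zfp36_KO.

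**Figure D1:**
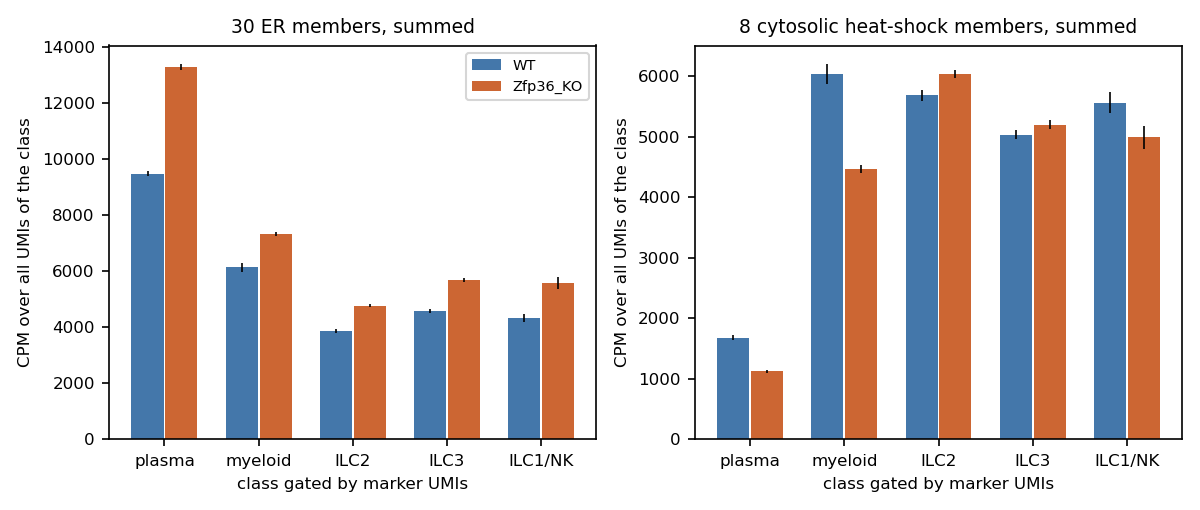
Summed level of the 30 ER members (left) and the 8 cytosolic heat-shock members (right) in CPM over all UMIs of each class, for WT and Zfp36_KO; bars start at 0 and lines are exact 95% Poisson intervals of the UMI count. Plasma cells have the tallest ER bars (9466 and 13271 CPM) and the shortest cytosolic bars (1676 and 1119 CPM).

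Of the 30 ER members, 12 were at least 2-fold higher in plasma cells than in ILC in both libraries, against 2.51% of all genes (232 of 9235). In WT alone 12 were higher (2.96% of genes) and 4 lower (85.6% of genes), and in Zfp36_KO alone 16 were higher (3.85%) and 1 lower (82%). None of the 8 cytosolic members was higher in either library, while 6 in WT and all 8 in Zfp36_KO were lower, as were most genes by this scale. With the reduced totals 26 of the 30 ER members were higher in both libraries, against 8.77% of genes, and the exceptions were Canx, Pdia3, Atf4 and Ddit3. On that scale 2 cytosolic members, Hspa1a and Dnajb1, were higher in WT, against 10.6% of genes, and 0 in Zfp36_KO, against 11.7%. Dnaja1 was lower in both, against 18.5%. All 30 ER members and all 10 heat-shock members passed the minimum of 50 UMIs in these comparisons.

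The degradation branch held the members with the widest differences between plasma cells and ILC. Derl3, a derlin of the channel through which misfolded chains leave the ER (chr10:75893413-75895941 in the GENCODE M21 annotation of GRCm38), was counted 979 times in WT plasma cells (218 CPM) and 1038 times in Zfp36_KO plasma cells (209 CPM). In ILC it was counted 4 and 8 times (0.549 and 0.866 CPM). The plasma cell level was 398 times that of ILC in WT (log2 8.64, 7.28 to 10.51) and 241 times in Zfp36_KO (7.91, 6.93 to 9.13). No Derl3 UMI was seen in WT myeloid cells, where against a floor of 3 counts plasma cells were at least 61.9-fold higher. Jchain, which defines the plasma gate, was at 69166 and 82995 CPM in plasma cells and at 77.0 and 76.7 CPM in ILC; the part of free RNA in these low ILC levels was not tested.

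Edem1, which extracts mannose-trimmed glycoproteins for degradation, stood at 457 and 712 CPM in plasma cells of WT and Zfp36_KO, against 31.0 and 45.0 CPM in ILC. Its log2 ratios were 3.88 and 3.98. Herpud1, a stress-induced organizer of the degradation complex, stood at 599 and 703 CPM against 145 and 111 CPM. Sel1l, the adaptor of the ubiquitin ligase SYVN1, was at 109 and 179 CPM against 32.8 and 42.1 CPM. Syvn1 itself was counted little, at 32.4 and 42.5 CPM against 16.1 and 15.3 CPM, with log2 ratios of 1.01 and 1.48. Derl1, the broadly expressed derlin, was at 163 and 166 CPM against 101 and 97.1 CPM and stayed under 2-fold in both libraries. Of the 6 degradation members 5 were thus higher in plasma cells in each library, against 2.96% of genes in WT and 3.85% in Zfp36_KO.

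Xbp1, the transcription factor required for plasma cell secretion (chr11:5520659-5525893), was the most unequal of the 4 response factors. Plasma cells held 1152 and 1518 CPM and ILC 86.4 and 106 CPM, with log2 ratios of 3.74 (3.62 to 3.86) and 3.84 (3.74 to 3.94). These 3′ tags do not show whether the transcript was spliced to its active form. Atf6, the membrane-bound factor cleaved on ER stress, was at 52.2 and 89.8 CPM against 37.3 and 61.1 CPM, a difference under 2-fold. Atf4, the factor translated when eIF2α is phosphorylated, ran the other way in WT, at 83.0 CPM in plasma cells and 172 CPM in ILC, and stood at 111 against 157 CPM in Zfp36_KO. Ddit3, the ATF4 target also called CHOP, was at 17.0 against 35.4 CPM in WT and 21.7 against 24.7 CPM in Zfp36_KO. Both Atf4 and Ddit3 were called lower in WT plasma cells on the scale of all UMIs and were above ILC, at log2 0.68 and 0.67, with the reduced totals.

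Among the 9 lumenal chaperones and cochaperones the differences were uneven. Hsp90b1, the ER member of the HSP90 family (chr10:86690209-86705509), was at 1224 and 2139 CPM in plasma cells and at 317 and 457 CPM in ILC, with log2 ratios of 1.95 and 2.23. Hspa5, which encodes BiP (chr2:34771970-34777547), was at 667 and 1376 CPM in plasma cells and at 613 and 932 CPM in ILC, so its log2 ratios of 0.12 and 0.56 stayed far below 2-fold on the scale of all UMIs. Myeloid cells held 865 and 1273 CPM of Hspa5, more than plasma cells in WT on that scale. With the reduced totals Hspa5 was called higher in plasma cells than in ILC (log2 1.86 and 2.14) and myeloid cells (1.48 and 1.73). Sdf2l1, a stabilizer of the BiP cycle, was at 214 and 308 CPM against 47.2 and 61.9 CPM in ILC. Creld2, a disulfide-linked chaperone induced by ER stress, was at 176 and 226 CPM against 25.8 and 31.6 CPM. Manf, a secreted and ER-retained factor induced by ER stress, was at 385 and 420 CPM against 202 and 196 CPM.

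The remaining lumenal members were Dnajb9, Dnajb11, Dnajc3 and Hyou1, of which the DNAJ proteins are cochaperones of BiP and HYOU1 its nucleotide exchange factor. Their log2 ratios of plasma cells to ILC lay between 0.22 (Dnajc3) and 0.88 (Dnajb11) in WT, none of them 2-fold. In Zfp36_KO Dnajb9 (1.27), Dnajb11 (1.14) and Hyou1 (1.05) passed 2-fold and Dnajc3 (0.54) did not. Of the lectin chaperones, Calr stood at 400 and 596 CPM in plasma cells against 335 and 444 CPM in ILC. Canx, the membrane-bound partner of calreticulin, stood at 71.9 and 132 CPM in plasma cells against 148 and 260 CPM. On the scale of all UMIs it was called lower in WT (log2 -1.04) and fell just short in Zfp36_KO (-0.98). With the reduced totals the direction turned, to 0.70 and 0.60.

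The disulfide isomerases split in the same way. Pdia4 was at 321 and 624 CPM in plasma cells against 93.6 and 132 CPM in ILC (log2 1.78 and 2.25), and Pdia6 was at 286 and 291 CPM against 145 and 149 CPM, just under 2-fold in both libraries. P4hb was level on the scale of all UMIs, at 65.2 and 100 CPM against 60.1 and 103 CPM, and higher with the reduced totals (1.85 and 1.54). Pdia3 is the isomerase that works with the lectin chaperones and in the loading of class I molecules of the major histocompatibility complex. On the scale of all UMIs it was lower in plasma cells, at 108 and 177 CPM against 280 and 442 CPM. With the reduced totals it was above ILC, at log2 0.37 and 0.26. Canx and Pdia3 were also lower in plasma cells than in myeloid cells in both libraries on the scale of all UMIs, against 66.8% of genes. With the reduced totals both were above myeloid cells, Canx at log2 0.36 and 0.61 and Pdia3 at 0.23 and 0.25.

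At the entrance of the ER, Ssr4, a subunit of the translocon-associated protein complex, was at 1041 and 1172 CPM in plasma cells against 273 and 251 CPM in ILC. Spcs1, a subunit of the signal peptidase complex, was at 370 and 475 CPM against 150 and 160 CPM. Sec61b and Sec61a1, subunits of the channel, stood at log2 ratios of 0.70 and 0.15 in WT and 0.81 and 0.57 in Zfp36_KO. Ssr2 was level on the scale of all UMIs, at 112 and 103 CPM against 112 and 99.3 CPM, and higher with the reduced totals (1.73 and 1.63). Thus 2 of the 5 entry members were 2-fold higher in each library on the scale of all UMIs, against 2.96% and 3.85% of genes.

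**Figure D2:**
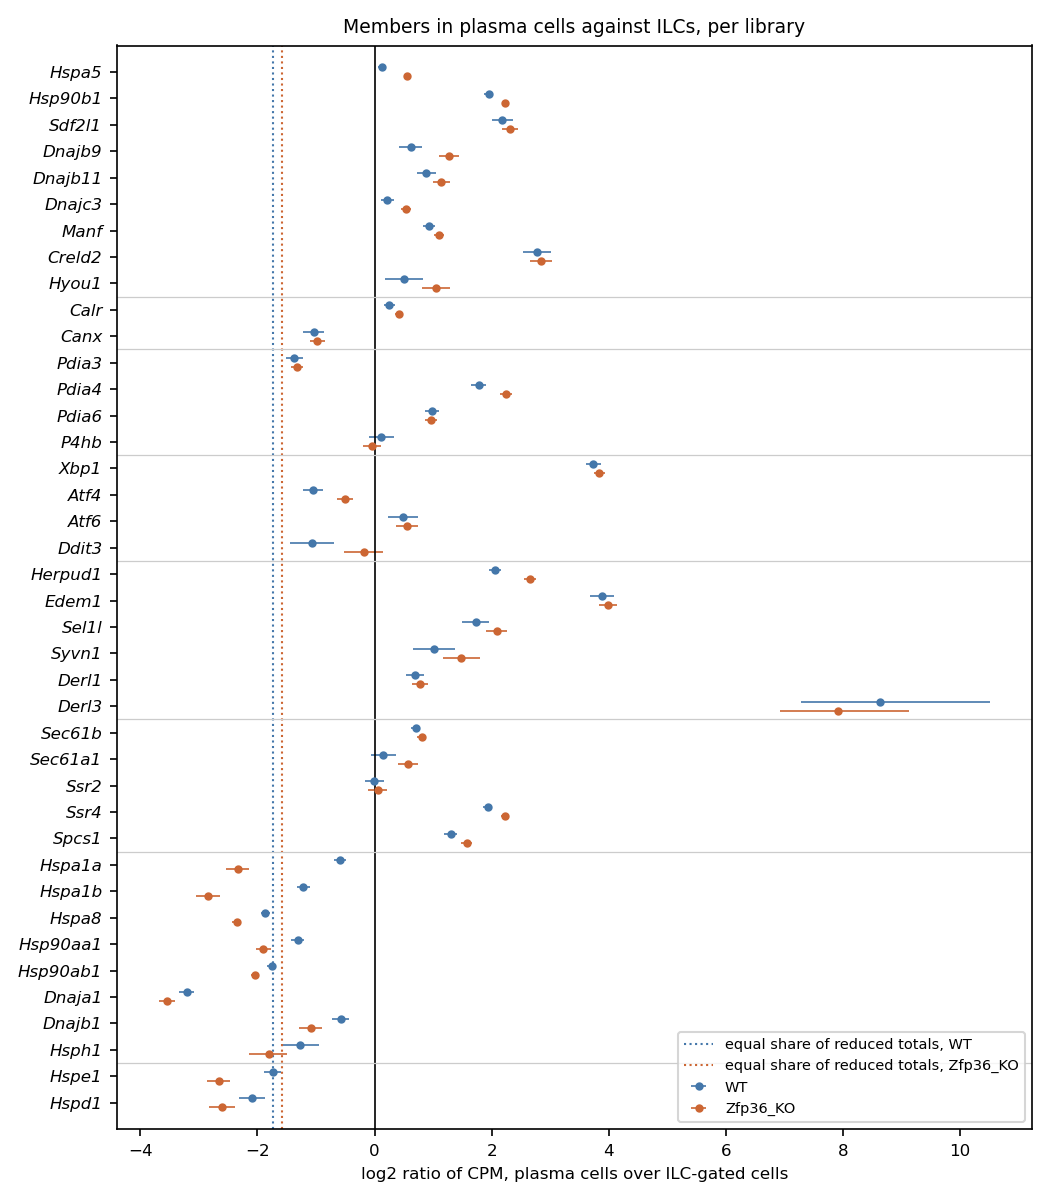
Log2 ratio of plasma cells to ILC for each of the 40 members in WT and Zfp36_KO on the scale of all UMIs, with exact 95% Clopper-Pearson intervals of the UMI split; the dotted lines mark where a ratio of 0 would fall with the reduced totals. Derl3 lies at 8.64 and 7.91, Edem1 and Xbp1 lie between 3.74 and 3.98, and the cytosolic members lie at or below -0.58.

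When the classes, T cells of WT among them, were ordered by CPM, 7 of 8 cytosolic members were lowest in plasma cells in each library. The exception in each was Dnajb1, which was lowest in myeloid cells. Most genes were 2-fold lower in plasma cells than in ILC on this scale (85.6% in WT, 82% in Zfp36_KO). The share of all genes lowest in plasma cells was not counted. Dnaja1, a cochaperone of cytosolic HSP70, was furthest apart, at 112 and 92.8 CPM in plasma cells against 1038 and 1086 CPM in ILC (log2 -3.21 and -3.55). Hspa8, the constitutive HSP70, was at 418 and 328 CPM against 1519 and 1671 CPM. Hsp90ab1, the constitutive cytosolic HSP90, was at 392 and 413 CPM against 1324 and 1702 CPM, while the inducible Hsp90aa1 was at 178 and 117 CPM against 443 and 436 CPM. Hsph1, a nucleotide exchange factor of HSP70, was at 21.9 and 19.1 CPM against 52.6 and 66.9 CPM. Both mitochondrial chaperonins were lowest in plasma cells too. Hspe1 was at 98.4 and 46.3 CPM against 328 and 293 CPM, and Hspd1 at 43.5 and 39.2 CPM against 186 and 238 CPM.

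By the same ordering, plasma cells held the highest CPM of 16 of the 30 ER members in WT and 20 in Zfp36_KO. Myeloid cells held the highest CPM of 7 and 4, among them Calr and Sec61b in both libraries. The share of all genes highest in each class was not counted. Against myeloid cells 12 ER members were at least 2-fold higher in plasma cells in both libraries, against 4.72% of genes. These 12 had Dnajb9, Dnajc3 and Manf in place of Sdf2l1, Herpud1 and Syvn1. On the scale of all UMIs Sdf2l1 was as high in myeloid cells (223 and 222 CPM) as in WT plasma cells (214 CPM). Herpud1 stood at 368 and 397 CPM in myeloid cells. Myeloid cells compared with ILC had 4 of 29 measured ER members 2-fold higher in both libraries (Sdf2l1, Herpud1, Edem1 and Sec61b), against 8.49% of genes, and 1 lower (Dnajc3), against 17.6%. The WT myeloid class held 50 cells, the smallest class compared.

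The wider pathway was read from 5 further gene lists. Of the 14 measured of 15 other ER folding genes, 7 were higher in plasma cells than in ILC in both libraries, against 2.51% of genes, among them the oxidoreductase Txndc5 (log2 5.81 in WT, 5.70 in Zfp36_KO) and the peroxiredoxin Prdx4 (4.74 and 4.50). Mzb1 is counted among the 7 as well, at 9.17 and 9.54, but it was used to gate the cells. Its call was therefore set by the gate and tells nothing about the list. Of the other unfolded protein response and degradation genes 3 of 14 were higher in both libraries, against the same 2.51%, while the sensor Ern1, the kinase that splices Xbp1, was lower (-3.70 and -3.20). None of the 26 other ER entry and glycosylation genes was higher in plasma cells, and 6 in WT and 5 in Zfp36_KO were lower, against 85.6% and 82% of genes. In both libraries 19 of 26 were higher with the reduced totals, against 8.77%. Of the ER export and retrieval genes 1 of 13 measured was higher and 1 lower in WT, against 2.96% and 85.6%, and 2 of 13 were higher and 0 lower in Zfp36_KO, against 3.85% and 82%. Among the other cytosolic heat-shock and co-chaperone genes 21 were lower in each library, of 24 measured in WT and 23 in Zfp36_KO, with a median log2 of -1.82 and -2.11. That share is near the 85.6% and 82% of all genes that were lower, and with the reduced totals 0 were lower in both libraries, against 18.5%.

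The plasma gate asked only for Jchain and Mzb1, and 58 WT and 63 Zfp36_KO plasma cells also passed another gate. Most passed that of B cells (41 and 56), whose marker Cd79a plasma cells can keep, while 25 and 12 passed a gate other than that of B cells and 16 WT cells passed that of T cells. Without those 25 and 12 cells the ER sum of plasma cells to ILC was log2 1.21 and 1.38.

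The classes of ILC were compared in pairs, with 29 ER members measured in each pair. Between ILC2 and ILC3, 6 of 29 measured ER members were 1.5-fold lower in ILC2 in WT, against 29.4% of genes, and 0 higher, against 7.31%, while 10 were lower and 1 higher in Zfp36_KO, against 30.1% and 8.35%. The same 6 were lower in both libraries, a share near the 20.9% of all genes: Xbp1, Atf6, Herpud1, Edem1, Pdia4 and Dnajb9. Xbp1 was at 54.1 CPM in ILC2 and 117 CPM in ILC3 of WT, and at 63.3 and 162 CPM in Zfp36_KO. Atf6 was at 16.0 and 57.6 CPM in WT and 29.3 and 101 CPM in Zfp36_KO. Hspe1, the mitochondrial co-chaperonin, was higher in ILC2 in both libraries (5.69% of genes were), at 424 against 246 CPM and 373 against 202 CPM. In Zfp36_KO the inducible Hspa1a and Hspa1b were lower in ILC2 (150 and 196 CPM) than in ILC3 (369 and 448 CPM).

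ILC1/NK were compared with both other classes. Against ILC2, 5 ER members were higher and 0 lower in ILC1/NK of WT, against 17.2% and 7.51% of genes, and 8 were higher and 1 lower in Zfp36_KO, against 15.6% and 7.95%. Sdf2l1, Dnajb9, Atf6, Ddit3 and Herpud1 were higher in both libraries, Hspa5, Xbp1 and Edem1 in Zfp36_KO alone by this rule, and P4hb was the lower member. Against ILC3, 2 were higher (Sdf2l1 and Ddit3) and 2 lower (Dnajc3 and Atf6) in WT, against 8.94% and 18.4%, and 1 was higher (Sdf2l1) and 2 lower (Pdia4 and P4hb) in Zfp36_KO, against 7.4% and 16.3%. Sdf2l1 stood at 97.2 and 94.4 CPM in ILC1/NK of WT and Zfp36_KO, 49.0 and 60.9 CPM in ILC2 and 35.2 and 58.5 CPM in ILC3.

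Between the libraries, the ER sum was higher in Zfp36_KO in all 5 classes. In plasma cells it was 9466 CPM in WT and 13271 CPM in Zfp36_KO (log2 0.49, 0.47 to 0.51), in ILC3 4562 and 5681 CPM (0.32, 0.29 to 0.35), and in ILC2 3870 and 4758 CPM (0.30, 0.27 to 0.33). Myeloid cells stood at 6125 and 7316 CPM (0.26, 0.21 to 0.30) and ILC1/NK at 4312 and 5567 CPM (0.37, 0.30 to 0.44). The median of all genes measured was itself above 0, at log2 0.25 in plasma cells, 0.15 in myeloid cells, 0.18 in ILC2, 0.16 in ILC3 and 0.13 in ILC1/NK. Against these, the median ER member stood at 0.47, 0.20, 0.23, 0.29 and 0.23. With the reduced totals the log2 ratio of the ER sum was 0.28 in plasma cells, 0.28 in myeloid cells, 0.22 in ILC2, 0.24 in ILC3 and 0.30 in ILC1/NK, so plasma cells no longer stood above the other classes. Without the cells that had a Y-linked UMI the log2 ratio over all UMIs stood at 0.52 in plasma cells, 0.32 in ILC3 and 0.29 in ILC2. Cells from male mice can lack such a UMI, so these values do not separate sex from genotype.

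The cytosolic sum did not follow. It was lower in Zfp36_KO in plasma cells (log2 -0.58, -0.63 to -0.53), in myeloid cells (-0.43, -0.48 to -0.39) and in ILC1/NK (-0.16, -0.23 to -0.09), and close to level in ILC2 (0.09, 0.06 to 0.12) and ILC3 (0.05, 0.02 to 0.08). In the last pair the sign turned under other settings. The 2 mitochondrial chaperonins summed to a lower level in Zfp36_KO in plasma cells (142 and 85.5 CPM) and in ILC1/NK (526 and 354 CPM).

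**Figure D3:**
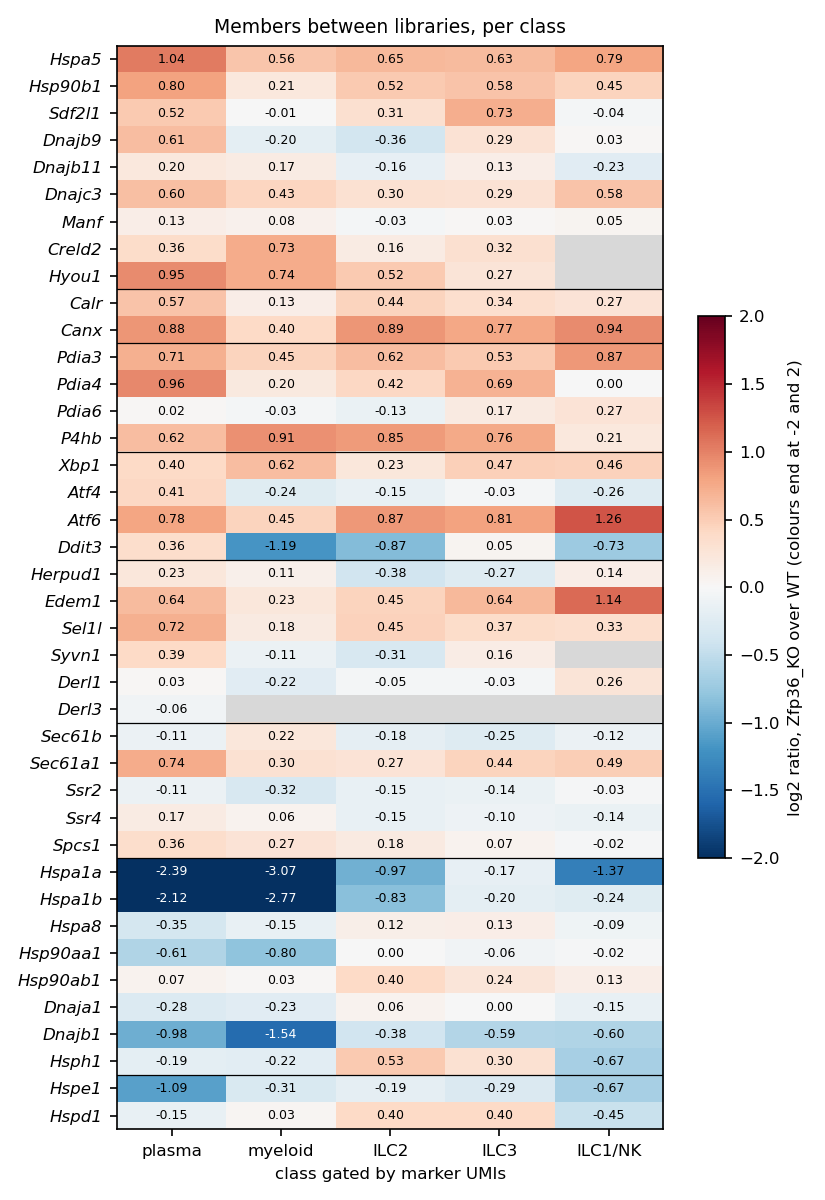
Log2 ratio of Zfp36_KO to WT for each of the 40 members in the 5 classes, on the scale of all UMIs; red is higher in Zfp36_KO, blue lower (colours end at -2 and 2), and grey cells had under 50 UMIs over both libraries. Most ER members are above 0 in plasma cells, and Hspa1a and Hspa1b are furthest below 0 in plasma cells and myeloid cells (-2.12 to -3.07).

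In Zfp36_KO plasma cells 13 of the 30 ER members were called higher, against 22.1% of all genes, and 0 were lower, against 3.89%. The set held Hspa5, Hsp90b1, Hyou1, Dnajb9, Dnajc3, Canx, Pdia3, Pdia4, P4hb, Atf6, Edem1, Sel1l and Sec61a1. With the reduced totals 5 remained above 1.5-fold (Hspa5, Hsp90b1, Canx, Pdia4 and Hyou1), against 12.2% of genes, and with every ratio centred on the median gene 4, against 10.5%. In ILC3 7 of 29 measured members were higher, against 14.7%, and 0 lower, against 4.04%. In ILC2 5 of 29 were higher and 1 lower, against 14.9% and 2.88%. Of 26 measured in ILC1/NK, 5 were higher and 1 lower, against 14% and 3.97%, and of 29 in myeloid cells 4 were higher and 1 lower, against 12.5% and 5.88%. In ILC2, ILC1/NK and myeloid cells the share of members called higher was near that of all genes. In plasma cells the share was near that of all genes too with the reduced totals or centred ratios. With centred ratios ILC3 kept only Canx, P4hb and Atf6, again near the share of all genes (7.78%).

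Hspa5 was called in 4 of the 5 classes. It was counted at 667 CPM in WT and 1376 CPM in Zfp36_KO plasma cells (log2 1.04, 0.98 to 1.11), at 522 and 817 CPM in ILC2 (0.65), at 671 and 1037 CPM in ILC3 (0.63), and at 730 and 1262 CPM in ILC1/NK (0.79). In myeloid cells it stood at 865 and 1273 CPM (0.56), just under 1.5-fold. With the reduced totals Hspa5 was called in plasma cells (0.84) and ILC1/NK (0.72) and fell short of 1.5-fold in ILC2 (0.56) and ILC3 (0.56), and the same 2 calls were lost with centred ratios (0.47 and 0.46). In cells thinned to 2000 UMIs, Hspa5 was seen in 63.2% of WT and 83.3% of Zfp36_KO plasma cells and in 67.7% and 78.0% of ILC3 (749 of 763 and 897 of 934 ILC3 reached that depth). Without thinning the ILC3 shares were 87.9% and 91.1%.

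Canx, which holds newly made glycoproteins in the ER (chr11:50293961-50325673), was also called in 4 classes. Its levels were 71.9 and 132 CPM in plasma cells (log2 0.88), 130 and 240 CPM in ILC2 (0.89), 169 and 288 CPM in ILC3 (0.77) and 125 and 240 CPM in ILC1/NK (0.94), with 202 and 266 CPM in myeloid cells (0.40). Atf6 followed the same classes: 52.2 and 89.8 CPM in plasma cells, 16.0 and 29.3 CPM in ILC2, 57.6 and 101 CPM in ILC3, and 33.3 and 79.9 CPM in ILC1/NK, where the last pair rests on 24 and 44 UMIs. With ratios centred on the median gene, Canx, Atf6 and P4hb were the 3 ER members still called higher in ILC2, against 7.28% of genes, and the 3 in ILC3, against 7.78%. In ILC1/NK Canx and Atf6 were among 5, against 8.67%. P4hb was at 58.9 and 106 CPM in ILC2, 61.3 and 104 CPM in ILC3 and 114 and 214 CPM in myeloid cells.

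Other folding enzymes were called in fewer classes. Hsp90b1 was higher in plasma cells (log2 0.80) and stood at 0.58 in ILC3 and 0.52 in ILC2, just under 1.5-fold. Pdia4 was higher in plasma cells (321 and 624 CPM) and ILC3 (115 and 186 CPM). Pdia3 was higher in plasma cells, ILC2 and ILC1/NK, at log2 0.71, 0.62 and 0.87. Edem1 was higher in plasma cells (0.64), ILC3 (0.64) and ILC1/NK (1.14, on 22 and 37 UMIs). Sdf2l1 was called in ILC3 (35.2 and 58.5 CPM), and Hyou1, Creld2 and Xbp1 in myeloid cells at 0.74, 0.73 and 0.62.

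Other ER members were called in no class. Pdia6 lay between -0.13 and 0.27 over the 5 classes, Manf between -0.03 and 0.13, Derl1 between -0.22 and 0.26, and Ssr2 between -0.32 and -0.03. Ssr4 lay between -0.15 and 0.17 and Sec61b between -0.25 and 0.22. Spcs1, Dnajb11, Calr, Atf4, Herpud1 and Syvn1 were not called either. Herpud1 was at lower levels in ILC2 (86.1 and 66.0 CPM) and ILC3 (195 and 162 CPM), both under 1.5-fold. Derl3 was at 218 and 209 CPM in plasma cells. Ddit3, at low counts, was the only ER member called lower anywhere: 47.0 and 20.7 CPM in myeloid cells, 34.3 and 18.8 CPM in ILC2 and 72.2 and 43.6 CPM in ILC1/NK, while plasma cells (17.0 and 21.7 CPM) and ILC3 (28.8 and 29.8 CPM) showed no such difference.

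Holders of the ER stress response element were set beside the other ER members. In Zfp36_KO plasma cells 4 of the 9 holders were higher than in WT (median log2 0.57), and 6 of 15 ER members with a promoter entry and no match (0.41), against 22.1% of genes. With the reduced totals the counts were 3 of 9 and 1 of 15, against 12.2%. Compared with ILC, 4 of 9 holders were higher in plasma cells in each library, and 8 of 15 in WT and 10 of 15 in Zfp36_KO among those with no match, against 2.96% and 3.85% of genes. These were 8 of 9 in each library with the reduced totals, and 12 and 14 of 15, against 10.6% and 11.7%.

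In the cytosol the stress-inducible members differed most between libraries. Hspa1a, an inducible HSP70 (chr17:34969190-34972156), was at 250 CPM in WT and 47.9 CPM in Zfp36_KO plasma cells (log2 -2.39, -2.59 to -2.18), and at 642 and 76.2 CPM in myeloid cells (-3.07, -3.27 to -2.88). It was at 294 and 150 CPM in ILC2 (-0.97), 539 and 209 CPM in ILC1/NK (-1.37) and 415 and 369 CPM in ILC3 (-0.17). The gap was thus wide in plasma and myeloid cells and narrow in ILC3. Hspa1b, its near-identical neighbour on chromosome 17, gave 189 and 43.5 CPM in plasma cells, 540 and 79.0 CPM in myeloid cells, 349 and 196 CPM in ILC2, 514 and 448 CPM in ILC3 and 482 and 409 CPM in ILC1/NK. How tags of the pair were divided is uncertain. Dnajb1, the inducible cochaperone of HSP70, was at 114 and 58.0 CPM in plasma cells, 101 and 34.7 CPM in myeloid cells, 172 and 132 CPM in ILC2, 174 and 116 CPM in ILC3 and 154 and 102 CPM in ILC1/NK.

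**Figure D4:**
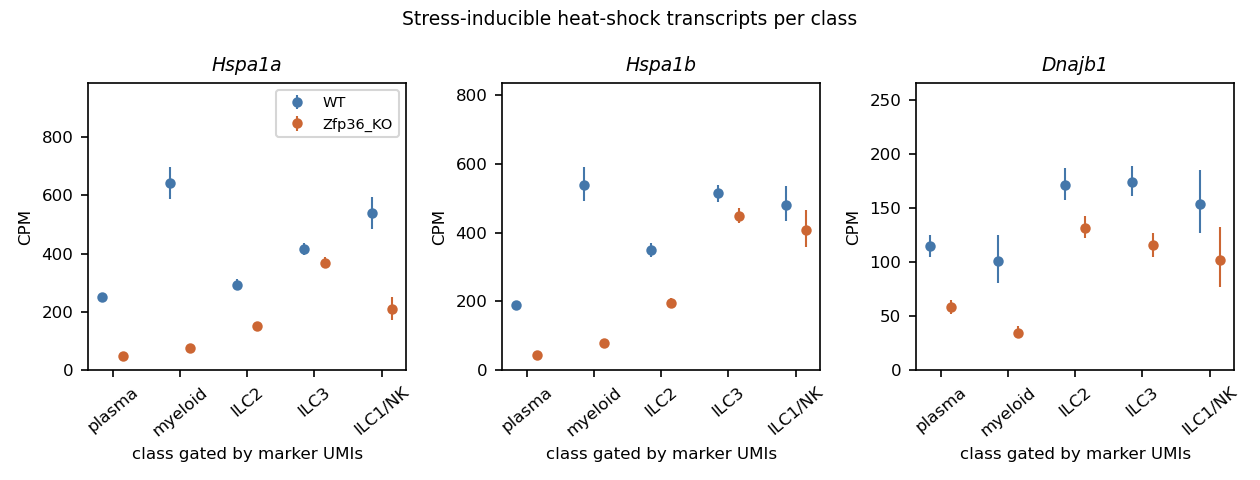
Level in CPM of the inducible heat-shock transcripts Hspa1a, Hspa1b and Dnajb1 in each class of WT and Zfp36_KO, with exact 95% Poisson intervals of the UMI count. The Zfp36_KO points lie below the WT points in every class, with the widest gap in myeloid cells for Hspa1a (642 and 76.2 CPM) and the narrowest for it in ILC3 (415 and 369 CPM).

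By the calling rule, 4 of 8 cytosolic members were lower in Zfp36_KO in plasma cells and 4 in myeloid cells, in each case Hspa1a, Hspa1b, Dnajb1 and Hsp90aa1, against 3.89% and 5.88% of genes. ILC2 had 2 lower (Hspa1a and Hspa1b), ILC1/NK 2 (Hspa1a and Dnajb1) and ILC3 1 (Dnajb1), against 2.88%, 3.97% and 4.04%. No cytosolic member was called higher in any class. The constitutive members moved little on the scale of all UMIs. Hspa8 lay between log2 -0.35 and 0.13 over the classes, Hsp90ab1 between 0.03 and 0.40, and Dnaja1 between -0.28 and 0.06. With centred ratios Hspa8 was called lower in plasma cells (-0.60). Hsph1 was called in no class on the scale of all UMIs, at 51.5 and 74.2 CPM in ILC2 and 75.0 and 47.2 CPM in ILC1/NK. In ILC1/NK it was called lower with the reduced totals (-0.74) and with centred ratios (-0.80). Hspe1 was lower in plasma cells (98.4 and 46.3 CPM) and ILC1/NK (305 and 192 CPM), and Hspd1 was called in no class.

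The UMIs of Hspa1a, Hspa1b and Dnajb1 were unevenly spread over the cells. Dnajb1 was still seen in 65 of 114 WT and 79 of 156 Zfp36_KO plasma cells. In ILC3 the richest 5% of cells carried 55.4% of Hspa1b UMIs in WT and 41.6% in Zfp36_KO. For Dnajb1 these shares were 62.7% and 40.6%. The 5% of cells richest in Hspa1a carried 76.7% of its UMIs in WT and 74.2% in Zfp36_KO ILC2, 71.4% and 51.1% in ILC3, 38.1% and 66.9% in myeloid cells, 55.1% and 69.7% in plasma cells, and 58.8% and 73.9% in ILC1/NK. In ILC3, leaving out those 5% in each library turned the log2 ratio of Hspa1a to 0.57, of Hspa1b to 0.21 and of Dnajb1 to 0.11. At 2000 UMIs a cell, Hspa1a was seen in 15.8% of WT and 23.6% of Zfp36_KO ILC3 (20.6% and 27.6% without thinning), which is opposite in order to the CPM, so no order is read from it, whereas in plasma cells it was seen in 21.1% and 8.33% (39.5% and 19.9% without thinning) and in myeloid cells in 29.2% and 10.3% (42.0% and 20.3%). In plasma and myeloid cells the log2 ratio of Hspa1a stayed at or below -2.32 under every setting tried.

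The immediate-early genes, which respond quickly to cell isolation, had lower sums in Zfp36_KO. They summed to 10026 and 7449 CPM in myeloid cells, 14026 and 10784 CPM in ILC2, 21323 and 17271 CPM in ILC3, 17870 and 14512 CPM in ILC1/NK, and 4883 and 4771 CPM in plasma cells. Of those measured, 6 of 14 were called lower in myeloid cells (5.88% of genes were), 4 of 12 in ILC2 (2.88%), 2 of 12 in ILC3 (4.04%), 1 of 12 in ILC1/NK (3.97%) and 3 of 12 in plasma cells (3.89%). The median share of mitochondrial UMIs was higher in Zfp36_KO, at 2.54% and 3.29% in plasma cells, 4.29% and 5.62% in myeloid cells and 5.38% and 5.99% in ILC3. The part of handling or cell quality in the heat-shock differences was not tested.

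Of the wider pathway, 7 of 26 other ER entry and glycosylation genes, 4 of 14 other ER folding genes, 6 of 15 other response and degradation genes and 4 of 14 export and retrieval genes were higher in Zfp36_KO plasma cells and none was lower, against 22.1% and 3.89% of genes. The shares of entry, folding and export genes were near that of all genes. In ILC3 2 of 26, 2 of 12, 3 of 14 and 1 of 13 were higher, against 14.7%, and in ILC2 2 of 26, 5 of 13, 2 of 14 and 1 of 13, against 14.9%. The mannosidase Edem3 was higher in plasma cells (log2 1.46) and ILC2 (1.41), the coat protein Sec24d in plasma cells (1.34) and myeloid cells (1.51), and the translocon subunit Sec63 in ILC3 (1.04). Among the other cytosolic heat-shock and co-chaperone genes 2 of 21 were higher and 1 lower in plasma cells, against 22.1% and 3.89%, and 6 of 23 were higher and 0 lower in ILC3, against 14.7% and 4.04%. Hspa4, a nucleotide exchange factor related to Hsph1, was higher in both classes, at 1.26 and 0.74.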

How the data were processed

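Per the file headers the deposited matrices hold raw counts of UMIs per gene and barcode made with Cell Ranger 3.1.0, and per the submitters' processing notes the build is mm10; the annotation release is not given in the sources used here. Coordinates are those of GENCODE M21. The members and lists were chosen with earlier results of these data known.

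Barcodes with at least 500 genes and at most 10% mitochondrial UMIs were kept and doublets called with Scrublet in scanpy 1.11.5. A plasma cell had at least 20 Jchain and 5 Mzb1 UMIs; other classes needed 3 markers and 5 UMIs (10 for myeloid cells), and a cell passing several of these gates was left out. UMIs were summed per class and library as counts per 1000000 UMIs (CPM). Exact Clopper-Pearson and Poisson 95% intervals came from scipy 1.17.1, and the ratio was tested on simulated data. Every member was named; of other lists, at most 3 called genes a direction and comparison, those whose interval end nearest 0 was farthest from 0. Alternatives changed filters, gates, totals, weighting and depth.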

Additional observations from a re-analysis of the deposited data

How the results depend on the processing

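Values are log2 ratios. Plasma cells over ILC, ER sum: 2.89 in WT and 2.94 in Zfp36_KO with immunoglobulin, ribosomal protein and mitochondrial genes left out of the total, 1.13 and 1.38 without the 5% of cells highest in the list, 1.20 and 1.39 for plasma cells passing no other gate, and 1.21 and 1.38 for those passing none other than B, an alternative chosen after seeing the data. It was 1.10 in WT with at least 4 markers, 1.11 in WT at 2000 UMIs a cell, 1.40 in Zfp36_KO with equal weight of each cell and 1.39 in Zfp36_KO without Y-positive cells. The cytosolic sum was 0.058 in WT and -0.76 in Zfp36_KO with the reduced total, -1.76 and -2.49 without the highest 5%, and -1.80 and -2.61 for plasma cells passing no other gate; in Zfp36_KO it was also -2.26 with at least 2 markers, -2.46 thinned and -2.39 passing none other than B. The count of 12 ER members 2-fold higher in both libraries became 26 with the reduced total and lay between 11 and 14 otherwise. Within a library that total raises the ratio of every gene by the same amount, and 8.77% of all genes were higher in both libraries on that scale. Zfp36_KO over WT, ER sum: 0.28 in ILC3 and 0.26 in ILC2 with 4 markers, 0.24 and 0.22 with the reduced total, and 0.35 in ILC2 thinned. The cytosolic sum in ILC3 was -0.00011 with all deposited barcodes, -0.0098 with 2 markers, -0.025 with the reduced total and 0.21 without the highest 5%; in ILC2 it was 0.13 with 4 markers, -0.020 with 2, 0.0069 with the reduced total and 0.17 without the highest 5%. The following alternatives were chosen after seeing the data. In plasma cells the ER sum between libraries (0.49) was 0.53 with equal weight, 0.28 with the reduced total, 0.54 without the highest 5%, 0.57 thinned, 0.52 without Y-positive cells and 0.45 passing no gate other than B; the cytosolic sum (-0.58) was -0.79 with the reduced total, -0.72 thinned, -0.74 passing no other gate and -0.66 passing none other than B. In myeloid cells the ER sum (0.26) was 0.33 with 2 markers, 0.18 with equal weight and 0.30 without Y-positive cells, and the cytosolic sum (-0.43) was -0.28 with 2 markers and -0.34 without the highest 5%. In ILC1/NK the ER sum (0.37) was 0.30 and the cytosolic sum (-0.16) -0.23 with the reduced total, and the latter was -0.23 thinned. Causes of these shifts other than the total were not tested. In ILC3 Hspa1a, Hspa1b and Dnajb1 reached 0.57, 0.21 and 0.11 without the 5% of cells highest in each gene, an alternative chosen after seeing the data. Of 151 values of the summed lists and the count under alternatives, 98 kept direction and size, and of 216 single-gene values 179 did. No paired analysis was possible because each genotype is 1 library and the labels give no replicate numbers; for the same reason no library could be left out.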
